A study of Homo sapiens with 6 samples.

Results

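The long arm of chromosome 20 (20q) is gained or amplified in many breast cancers and other carcinomas. It carries genes for the mitotic spindle, for the cell cycle transcription factors E2F1 and B-Myb and for the survival protein Bcl-xL, several of which are regarded as oncogenes of this arm. DNA copy number was not measured here.

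The 60 genes described here were chosen from 20q by name, of 26255 gene symbols in the expression table, after genes of chromosome 20 had been seen to be lower in shGPR81 cells than in shNT cells in these same libraries. Their levels in this comparison are therefore given as a description, without a test. RNA-seq was performed in MDA-MB-231, a human breast cancer line of mesenchymal character, carrying a lentiviral control hairpin (shNT, 3 libraries) or a hairpin against GPR81, the lactate receptor encoded by HCAR1 (shGPR81, 3 libraries). Cells of both groups had been selected with puromycin. Which GPR81 hairpin was sequenced, and whether the 3 libraries of a group came from separate cultures, is not stated in the sources used here, so p-values measure only the spread between these libraries, which may be technical. The authors' values are FPKM, fragments scaled by transcript length and library size, and differences are given as log2 fold changes of shGPR81 against shNT on the log2(FPKM + 0.1) scale.

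The libraries fitted their cell line. Of its mesenchymal markers, VIM lay between 3211 and 4443 FPKM, and CD44, AXL and CAV1 each lay between 144 and 182 FPKM. The luminal genes ESR1, PGR and CDH1 were listed at 0 in each library and EPCAM lay between 5.20 and 6.86 FPKM. The summed blood and endothelial markers PTPRC, PECAM1 and CDH5 did not exceed 0.136 FPKM, with CDH5 listed at 0. HCAR1, the gene targeted, was at 0.968, 1.02 and 1.36 FPKM in the shNT libraries and at 0.978, 0.891 and 0.396 FPKM in the libraries labelled shGPR81. These ranges overlapped, and the difference of -0.57 ± 0.31 (SE, n = 3) had a limma adjusted p of 0.38 and an exact two-sided permutation p of 0.2, where 0.1 is the smallest p possible with 3 against 3 libraries. The labels were therefore not checked by the targeted transcript in these libraries. For its knockdown lines, the paper reports reduced GPR81 by RT-qPCR and western blotting, which were measured apart from these libraries. From the steps between low FPKM values, the depth per library was estimated at 11935622 to 12763597 reads. These are medians over genes and only rough, with quartiles of 8401393 and 13023452 in shNT replicate 1. They rest on the length of the longest annotated transcript. The first shNT library stood apart along GC content: on chromosomes other than 20 its median deviation from the other shNT libraries was 0.10 log2 units over genes with the GC range of the 19 GC-poorest 20q genes and -0.25 over genes with the range of the 19 GC-richest.

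The 20q genes were lower in shGPR81 cells by about the same amount along the arm. Of the 60 genes, 59 passed the filter of 0.1 FPKM in at least 3 libraries, and all 59 had a log2 fold change below 0. At a mean of 5 FPKM or more, 57 genes remained, with a median log2 fold change of -0.37, which is 77.6% of the shNT level. The interquartile range ran from -0.43 to -0.29. In bulk RNA, fewer cells with a given level and less RNA per cell cannot be told apart. The FPKM of the 60 genes summed to 6071, 6576 and 6894 in the shNT libraries and to 4980, 5021 and 5204 in the shGPR81 libraries, and the groups did not overlap.

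**Figure D1:**
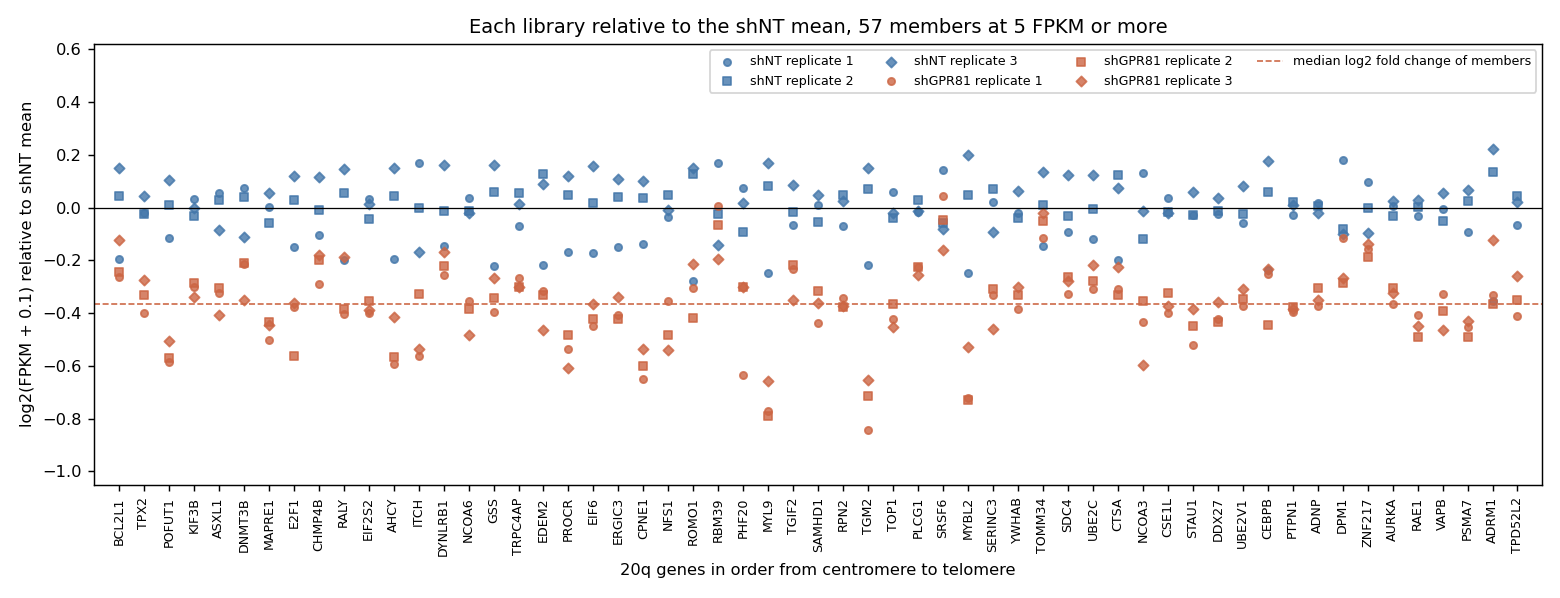
The 57 genes of 20q with a mean of 5 FPKM or more, in order from the centromere to the telomere, with log2(FPKM + 0.1) of each library relative to the shNT mean on the vertical axis. Blue marks are the 3 shNT libraries, orange marks the 3 shGPR81 libraries, and the dashed line is the median log2 fold change of -0.37, around which the shGPR81 marks run from one end of the arm to the other.

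Each shGPR81 library showed the shift on its own. Relative to the shNT mean, the median over the 57 genes was -0.37, -0.35 and -0.35 in the 3 shGPR81 libraries and -0.06, 0.01 and 0.06 in the 3 shNT libraries. Genes of other chromosomes had library medians between -0.02 and 0.02. In the shGPR81 libraries, 55, 57 and 57 of the 57 genes lay below the shNT mean, and the 3 library medians differed from each other by less than the shNT medians did.

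In the fit over 14349 genes, 4 of the 59 tested 20q genes (MYL9, TGM2, MYBL2 and CPNE1) passed both an adjusted p of 0.05 and a fold change of 1.5 downward, where 1.59% of all tested genes did. Without the fold threshold 39 were lower, against 3.07% of all tested genes. None was higher at this threshold, against 2.06% of all tested genes. The 3 shGPR81 values lay below the 3 shNT values without overlap in 50 of the 59, against 12.7% of all tested genes, and overlapped in BCL2L1, RALY, ROMO1, RBM39, SRSF6, TOMM34, PREX1, CEBPB and ADRM1. Nothing is read from these counts, since the genes were taken for this comparison. The median fold lies under the fold threshold of 1.5, so a gene at the typical level of the arm is not called by that rule.

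The evenness of the shift was described by its spread. Of the 57 genes, 39 lay within 0.1 and 49 within 0.2 log2 units of the median. The SD over the 57 genes was 0.139, while the root mean square of their single-gene SEs was 0.0774, so the genes differed among themselves by more than the error of a single gene. The interquartile range of 0.144 was close to that of 8219 genes of other chromosomes at the same level, which was 0.163 around a median of 0.01. By this measure the spread of the 20q genes was no wider than that of genes elsewhere. The genes were picked with values of this comparison known, so their spread is a description.

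Position made little difference. The median was -0.37 for the 33 genes that start between 30 and 40 Mb of chromosome 20 (GRCh37), -0.34 for the 17 genes between 40 and 50 Mb, -0.36 for the 4 between 50 and 60 Mb and -0.34 for the 3 beyond 60 Mb. As descriptions across 57 genes that share the same libraries, the rank correlation of the log2 fold change was 0.071 with position, 0.067 with mean FPKM, -0.065 with GC content and -0.024 with transcript length.

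The other genes of the arm, which were not chosen by name, lay at the same level. They belong to the chromosome whose lower level in these libraries led to the choice. Their values are therefore a description too, and no independent check. Over 130 such genes at 5 FPKM or more the median log2 fold change was -0.36, with an interquartile range of 0.155, and 124 were below 0. In 104 of the 130 the shGPR81 values lay below the shNT values without overlap, against 12.7% of all tested genes. The short arm lay lower still, with a median of -0.52 over 80 genes, or 69.6% of the shNT level. The difference between the arms was not tested.

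**Figure D2:**
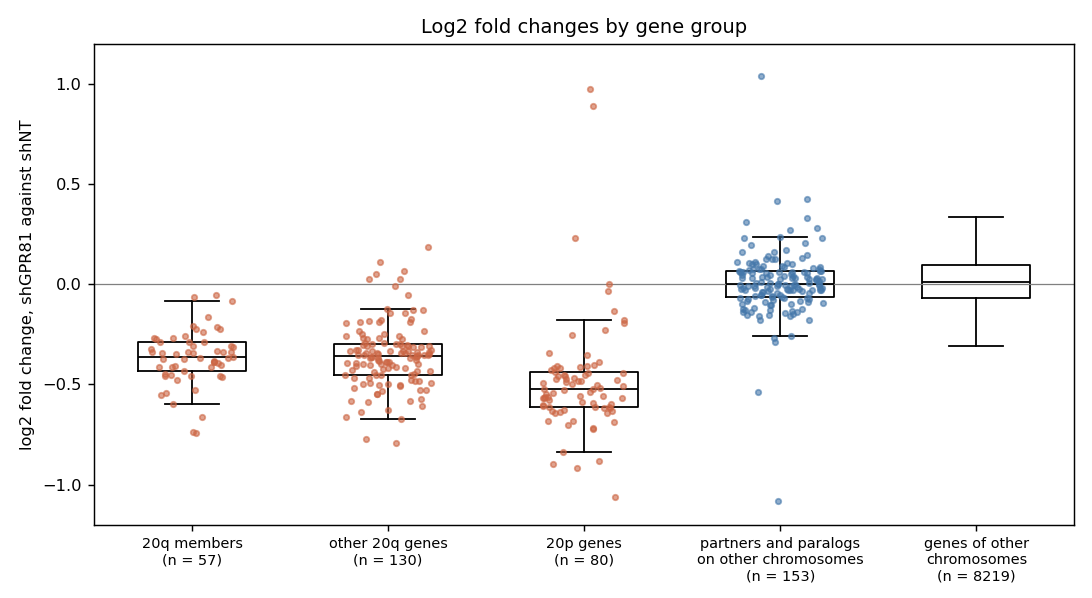
Log2 fold change of shGPR81 against shNT on the vertical axis for 57 chosen 20q genes, 130 other 20q genes, 80 genes of 20p, 153 partners and paralogs on other chromosomes and 8219 genes of other chromosomes; boxes give the median and quartiles, whiskers reach at most 1.5 interquartile ranges and points are genes, which are not drawn for the last group. The medians are -0.37, -0.36, -0.52, 0.00 and 0.01, and 2, 1 and 26 genes of the other 20q, partner and other-chromosome groups lie outside the axis from -1.2 to 1.2.

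Genes of mitosis and the cell cycle had a median of -0.37 over 9 genes, of which none was above -0.27. AURKA (chr20:54944445-54967393, minus strand, GRCh37) encodes the Aurora A kinase of the centrosome and spindle. Its FPKM was 125, 122 and 127 in the shNT libraries and 96.5, 100.9 and 99.5 in the shGPR81 libraries, without overlap, a log2 fold change of -0.33 ± 0.04 (SE, n = 3). TPX2 (chr20:30327074-30389608, plus strand), which activates Aurora A on spindle microtubules and lies near the other end of the arm, went from 172, 171 and 180 FPKM to 132, 138 and 144 FPKM, a log2 fold change of -0.34 ± 0.05. The enzyme and its activator thus lay at 79.5% and 79.3% of their shNT means.

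UBE2C, the ubiquitin-conjugating enzyme of the anaphase-promoting complex, was the most abundant of the group. It was at 303, 328 and 359 FPKM in shNT cells and at 266, 271 and 283 FPKM in shGPR81 cells, again without overlap, and its log2 fold change of -0.27 ± 0.07 was the smallest in the group. CSE1L, the export receptor of importin alpha, was at 247, 239 and 238 FPKM against 183, 192 and 186 FPKM, with a log2 fold change of -0.37 ± 0.05 at the median of the arm. MAPRE1, a protein of growing microtubule ends, RAE1, a factor of mRNA export and the spindle checkpoint, and KIF3B, a kinesin motor subunit, had log2 fold changes of -0.46, -0.45 and -0.31. For KIF3B the smallest whole reads that fitted the FPKM steps were 1102, 1082 and 1079 in the shNT libraries. In the shGPR81 libraries they were 937, 935 and 901, and the true counts may be a shared multiple of these.

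The cell cycle transcription factors of the group included its lowest gene. MYBL2, which encodes B-Myb, the activator of late cell cycle genes, was at 66.8, 81.9 and 91.1 FPKM in shNT cells and at 48.0, 47.7 and 54.97 FPKM in shGPR81 cells. The groups did not overlap, although the shNT values were widely spread, and the log2 fold change was -0.66 ± 0.12. E2F1, a driver of the G1 to S transition, was at 34.3, 38.8 and 41.4 FPKM against 29.3, 25.7 and 29.6 FPKM. Its log2 fold change was -0.43 ± 0.09, and its recovered reads were 1180, 1366 and 1424 against 1078, 934 and 1077.

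The E2F1 promoter is shown because E2F1 is known to act on its own promoter, and the letters bound by E2F factors occur next to its start. The sequence is from RefSeq (GRCh38.p14, chr20:33686386-33686515, minus strand, 5′ to 3′) and covers positions -130 to -1 from the annotated start. Capitals mark a match to the E2F letters TTTGGCGC at -20 and matches to CCAAT at -113 and -70. E2F letters other than TTTCCCGC and TTTGGCGC were not searched, so unmarked bases may hold further forms.
E2F1 promoter: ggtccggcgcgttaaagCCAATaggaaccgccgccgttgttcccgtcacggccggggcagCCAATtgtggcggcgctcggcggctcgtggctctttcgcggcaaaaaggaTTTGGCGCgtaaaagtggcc
Promoters of 50 of the 60 genes were matched in the RefSeq table, and those of TPX2, AURKA, UBE2C, EIF2S2, NCOA6, GSS, RBM39, MYL9, TGM2 and PSMA7 were not searched. In the 250 bases before the start, on both strands, TTTCCCGC or TTTGGCGC occurred in 3 of the 50 (E2F1, PHF20 and YWHAB), against 1.93% of 35116 promoters. CCAAT occurred in 16 of the 50 against 32.0%, and TTTGAA, the core of the cell cycle homology region, in 4 of the 50 against 13.3%. The matches in the printed stretch do not overlap each other. A match is a description of the letters and was not tested as a site.

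Genes regulated by E2F factors elsewhere in the genome did not share the shift. Over 22 E2F target genes outside chromosome 20 the median log2 fold change was 0.02, beside 0.01 over all tested genes. With limma and Benjamini-Hochberg adjustment none passed an adjusted p of 0.05, 1 had an unadjusted p under 0.05, and the lowest adjusted p, 0.0587, belonged to RRM2, a subunit of ribonucleotide reductase, at -0.20. Of 22 mitotic genes outside chromosome 20, 5 had a log2 fold change below 0 and the median was 0.06. None of these passed an adjusted p of 0.05, 1 had an unadjusted p under 0.05, and the lowest adjusted p was 0.244, for PRC1 at 0.10.

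Among the genes of transcription, chromatin and DNA, 11 in number, the median was -0.35. NCOA3, the steroid receptor coactivator amplified in breast cancer, was the lowest, at 8.10, 6.81 and 7.34 FPKM in shNT cells and 5.45, 5.77 and 4.85 FPKM in shGPR81 cells, a log2 fold change of -0.46 ± 0.10. ASXL1, a chromatin regulator, was at 34.0, 33.4 and 30.8 FPKM against 26.1, 26.4 and 24.6 FPKM, a log2 fold change of -0.35 ± 0.06. Neither gene overlapped between the groups. The de novo DNA methyltransferase DNMT3B was at 8.43, 8.23 and 7.41 FPKM against 6.90, 6.91 and 6.26 FPKM, with a log2 fold change of -0.26 ± 0.08.

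ZNF217, a zinc finger factor at the centre of the 20q13 amplicon of breast cancer (chr20:52183610-52226446, minus strand), differed least in this group. It was at 13.2, 12.3 and 11.5 FPKM in shNT cells and at 11.04, 10.8 and 11.2 FPKM in shGPR81 cells, a log2 fold change of -0.16 ± 0.07. The FPKM values did not overlap between the groups. The recovered reads, 987, 945 and 864 against 885, 855 and 886, did, so the separation was narrow and rested on the scaling for depth. TOP1, DNA topoisomerase 1, lay at -0.41 and ADNP, a homeodomain protein of chromatin, at -0.34.

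**Figure D3:**
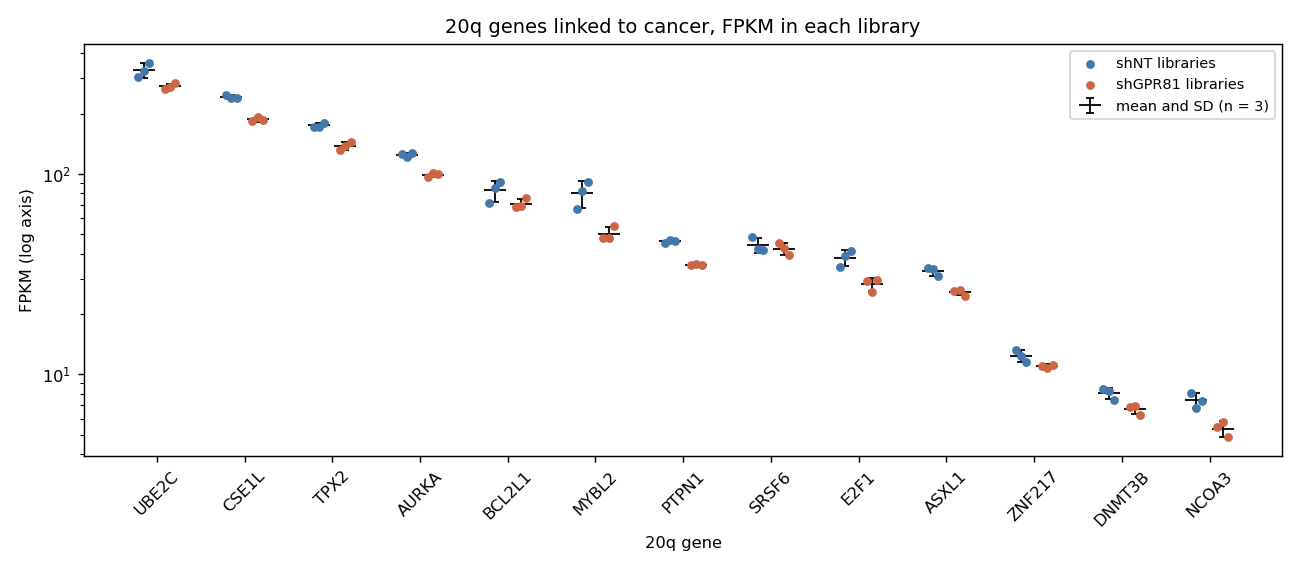
FPKM on a log axis of the 13 cancer-linked 20q genes with a mean of 5 FPKM or more, in order of the shNT mean, with each shNT library in blue, each shGPR81 library in orange and bars for the mean and SD (n = 3). The shGPR81 points lie under the shNT points in 11 of the genes, and overlap with them in BCL2L1 and SRSF6. Of all tested genes, 12.7% were lower without overlap. The genes were chosen with this comparison known, so nothing is read from the count.

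Among signalling, survival, surface and matrix genes the spread was widest, with an interquartile range of 0.305 around a median of -0.39 over 9 genes. MYL9 (chr20:35169900-35179850, plus strand), the regulatory light chain of smooth muscle and non-muscle myosin, was the lowest of the 59 tested genes. It was at 37.7, 47.4 and 50.3 FPKM in shNT cells and at 26.2, 25.8 and 28.3 FPKM in shGPR81 cells, which is 59.4% of the shNT mean, with a log2 fold change of -0.74 ± 0.11. TGM2 (chr20:36755787-36794980, minus strand), transglutaminase 2, a protein crosslinking enzyme, was at 58.8, 71.8 and 75.9 FPKM against 38.1, 41.7 and 43.4 FPKM, with a log2 fold change of -0.74 ± 0.10. Both genes lay further from the median of the arm than any of the others, and in neither did the groups overlap.

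CPNE1, a calcium-dependent phospholipid-binding protein, was at 162, 183 and 192 FPKM against 114, 118 and 123 FPKM, a log2 fold change of -0.60 ± 0.07. RBM12 lies on the same strand within the CPNE1 locus and was at 21.4, 22.3 and 22.1 FPKM against 22.5, 23.6 and 22.9 FPKM, a log2 fold change of 0.07. How reads were divided between these overlapping genes is not given in the sources used here, so both values are uncertain. PROCR, the protein C receptor, lay at -0.54, with 725, 864 and 888 reads in shNT cells and 601, 617 and 565 reads in shGPR81 cells.

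Bcl-xL, the survival protein encoded by BCL2L1 at the proximal end of the group (chr20:30252255-30311792, minus strand), showed a smaller difference. BCL2L1 was at 71.8, 84.8 and 91.2 FPKM in shNT cells and at 68.5, 69.3 and 75.5 FPKM in shGPR81 cells, and the first shNT library lay among the shGPR81 values. The log2 fold change was -0.21 ± 0.09. It was -0.31 without that library and -0.14 without shNT replicate 3. PTPN1, the tyrosine phosphatase PTP1B, varied little within either group, at 45.1, 46.7 and 46.3 FPKM against 35.0, 35.5 and 35.3 FPKM, a log2 fold change of -0.39 ± 0.04.

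Of the 3 genes under 5 FPKM, PMEPA1, a membrane protein induced by TGF-beta, was at 5.31, 5.78 and 5.87 FPKM in shNT cells and 3.84, 4.03 and 3.76 FPKM in shGPR81 cells, a log2 fold change of -0.53. PREX1, a Rac exchange factor, rested on 13, 22 and 14 reads against 6, 17 and 6 reads, so its log2 fold change of -0.51 ± 0.34 was not distinguishable from the arm or from 0 at this depth. It also depended on the pseudocount and was -0.77 without shGPR81 replicate 2. SULF2, an extracellular heparan sulfatase, was listed at 0 in the 3 shGPR81 libraries and in 1 shNT library, with 0.0192 and 0.0588 FPKM in the others, and was not tested.

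Genes of RNA processing and translation had a median of -0.38 over 7 genes, with SRSF6 and RBM39 well above it. STAU1, an RNA transport protein, was the lowest at 78.4, 78.5 and 83.3 FPKM against 55.7, 58.7 and 61.2 FPKM, a log2 fold change of -0.45 ± 0.05. SRSF6 (chr20:42086533-42094686, plus strand), a splicing factor counted among the oncogenes of the arm, was the highest of the 59 genes. It was at 48.4, 42.1 and 41.5 FPKM in shNT cells and at 45.2, 42.4 and 39.3 FPKM in shGPR81 cells, with overlapping groups and a log2 fold change of -0.06 ± 0.08.

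RBM39, a splicing coactivator (chr20:34289269-34330234, minus strand), was similar. It was at 86.7, 75.8 and 69.8 FPKM in shNT cells and at 77.4, 73.6 and 67.4 FPKM in shGPR81 cells, with overlapping groups and a log2 fold change of -0.09 ± 0.09. The first shNT library was the highest for both splicing factors. Both values depended on the libraries. Without the first shNT library the log2 fold changes were 0.02 for SRSF6 and 0.00 for RBM39, and without shNT replicate 3 they were -0.10 and -0.16. Without shNT replicate 2 that of SRSF6 was -0.08. Without shGPR81 replicate 1 they were -0.10 and -0.13, and without shGPR81 replicate 3 they were 0.00 and -0.03. After a correction for GC content, added after the data were seen, they were -0.06 and -0.10.

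TOMM34, a cochaperone of mitochondrial import (chr20:43570771-43589038, minus strand), was another gene near 0. It was at 151, 168 and 183 FPKM in shNT cells and at 154, 161 and 165 FPKM in shGPR81 cells, a log2 fold change of -0.06 ± 0.08. Without the first shNT library the groups no longer overlapped and the value was -0.14, without shNT replicate 3 it was 0.01, and without shGPR81 replicate 1 it was -0.04. PABPC1L lies on the opposite strand across most of TOMM34, with a mean of 2.96 FPKM and a log2 fold change of 0.38, and whether reads were counted by strand is not given in the sources used here. The next genes above the median were ZNF217 at -0.16, BCL2L1 at -0.21 and DYNLRB1, a light chain of cytoplasmic dynein, at -0.22, and the step from RBM39 to ZNF217 was about the SE of either gene. SRSF6, TOMM34 and RBM39 were the 3 highest of the 57 genes with all libraries and in 4 of the 6 fits without 1 library. Without shNT replicate 1, ZNF217 at -0.11 and DPM1 at -0.13 lay above TOMM34, and without shNT replicate 3, DYNLRB1 and BCL2L1, both at -0.14, lay above RBM39.

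Over the other 20q genes at 5 FPKM or more, 6 of 130 had a log2 fold change above 0. The highest was SLCO4A1, an organic anion transporter, at 22.5, 22.3 and 24.0 FPKM against 27.5, 24.0 and 26.7 FPKM, a log2 fold change of 0.18 with a limma adjusted p of 0.195. RBM12 was the other gene of the 6 whose groups did not overlap, where 12.9% of all tested genes were higher without overlap, and none of the 6 passed an adjusted p of 0.05. At the other end, EEF1A2, a translation elongation factor, fell from 15.6, 18.8 and 21.9 FPKM to 0.903, 0.953 and 1.22 FPKM, a log2 fold change of -4.06 with a limma adjusted p of 9.85e-05, far outside the range of the 59 genes. These genes were picked out after their values were seen.

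Genes of protein folding, transport and turnover had a median of -0.34 over 16 genes, and the 5 genes of metabolism and mitochondria one of -0.37. POFUT1, which adds O-fucose to Notch receptors, was the lowest of the former at 52.4, 57.04 and 61.0 FPKM against 37.7, 38.2 and 39.9 FPKM, a log2 fold change of -0.55 ± 0.07. In the latter, AHCY, which hydrolyses S-adenosylhomocysteine, was the lowest at 241, 284 and 305 FPKM against 182, 186 and 206 FPKM, a log2 fold change of -0.53 ± 0.09. ROMO1, a small mitochondrial protein, was the highest at 293, 388 and 393 FPKM against 287, 265 and 305 FPKM, with overlapping groups and a log2 fold change of -0.31 ± 0.12. Apart from TOMM34, the genes of both groups lay between -0.55 and -0.22.

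The other genes of these groups were given by their values alone. In the secretory pathway, ERGIC3, a cargo receptor between the endoplasmic reticulum and the Golgi, EDEM2, a mannosidase-like protein of glycoprotein disposal, and VAPB, a tether of endoplasmic reticulum contacts, lay at -0.39, -0.37 and -0.39. DPM1, the catalytic subunit of dolichol-phosphate mannose synthase and the most GC-poor of the 57 genes, had 1345, 1149 and 1106 reads in shNT cells and 1171, 1028 and 1043 reads in shGPR81 cells, with a log2 fold change of -0.22 that was -0.13 without the first shNT library. Its reads overlapped between the groups, whereas its FPKM, scaled for depth, did not. In ubiquitin and lysosome biology, ITCH, a ubiquitin ligase, UBE2V1, a partner of the enzyme that builds K63-linked chains, CTSA, a lysosomal protease, and CHMP4B, an ESCRT-III subunit, lay at -0.48, -0.34, -0.29 and -0.22. ADRM1, the ubiquitin receptor of the proteasome, was at 170, 238 and 253 FPKM against 172, 168 and 199 FPKM. Its groups overlapped through the first shNT library, and its log2 fold change of -0.27 ± 0.15 was -0.45 without that library and -0.16 without shNT replicate 3.

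Among the remaining genes, EIF6, a factor that keeps ribosome subunits apart, and DDX27, a helicase of ribosome assembly, both lay at -0.41. RALY, an RNA-binding protein, lay at -0.32. NFS1, the cysteine desulfurase of iron-sulfur cluster synthesis, GSS, glutathione synthetase, and SERINC3, a membrane protein, lay at -0.46, -0.34 and -0.37. CEBPB, a leucine zipper factor and the most GC-rich of the 57 genes, had 701, 882 and 935 reads in shNT cells and 743, 641 and 744 reads in shGPR81 cells. Its log2 fold change was -0.31 ± 0.11, which was -0.43 without the first shNT library and -0.22 without shNT replicate 3. In FPKM the first shNT library alone lay within the range of the shGPR81 values. The coactivator NCOA6 at -0.41, the chromatin reader PHF20 at -0.41, the dNTP hydrolase SAMHD1 at -0.37 and the repressor TGIF2 at -0.27 did not overlap between the groups. SDC4, a cell surface proteoglycan, PLCG1, a phospholipase of receptor signalling, TPD52L2, a vesicle traffic protein, and TRPC4AP, a ubiquitin ligase adaptor, lay at -0.29, -0.24, -0.34 and -0.29, also without overlap.

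The overlaps between groups were also counted without the first shNT library and after the GC correction. When the 57 genes were split by GC content into 3 sets of 19, this library differed from the mean of the other shNT libraries by a median of 0.05 log2 units in the GC-poorest set, -0.10 in the middle set and -0.30 in the GC-richest set. The groups overlapped in 2, 1 and 5 genes of these sets, in 2, 0 and 0 without the library and in 2, 1 and 0 after the GC correction. The 2 that overlapped under each of these were SRSF6 and RBM39. Leaving out any library can only keep or lower a count of overlaps, and counts without another library are not given here. The fall without the first shNT library is therefore not credited to it. With all libraries, 12.7% of all tested genes were lower without overlap and 12.9% were higher. Shares over all tested genes under the other settings are not given here, so nothing is read from these counts of overlaps. The median of the GC-richest set was -0.34 with all libraries, -0.45 without the first shNT library and -0.36 after the correction. The part of GC content in single values of GC-rich genes such as ADRM1, CEBPB and ROMO1 was not tested further.

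**Figure D4:**
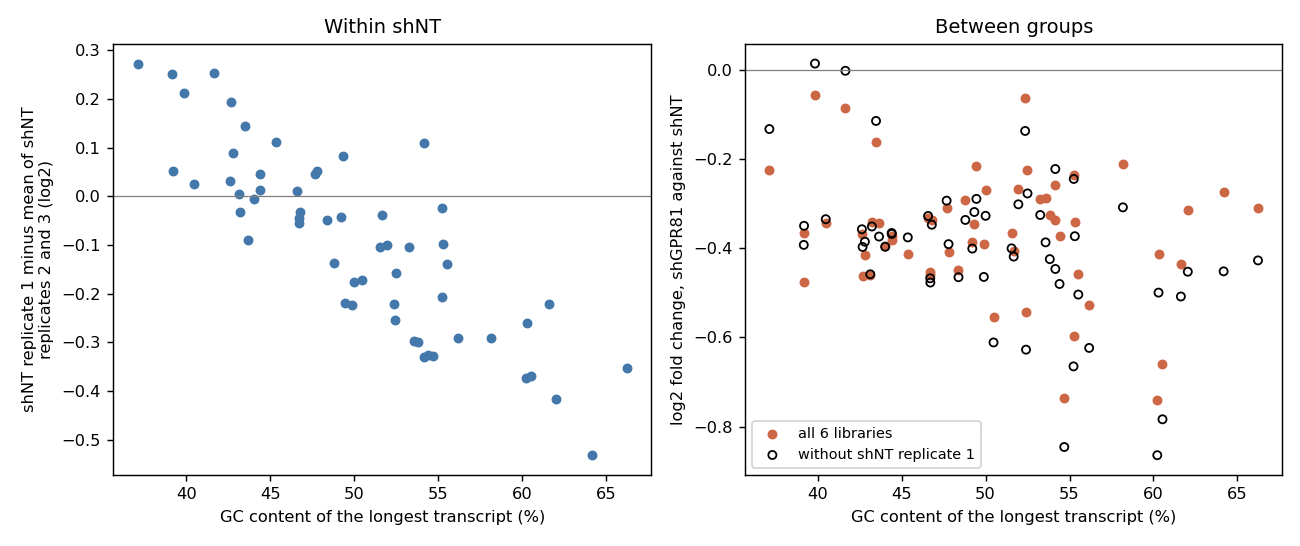
The 57 genes of 20q by GC content of the longest transcript (horizontal axis, %); left, the first shNT library minus the mean of the other shNT libraries in log2 units, and right, the log2 fold change of shGPR81 against shNT with all 6 libraries (filled) and without the first shNT library (open). The left panel falls from a median of 0.05 in the 19 GC-poorest genes to -0.30 in the 19 GC-richest, and on the right the median of the GC-richest genes moves from -0.34 to -0.45.

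Many of the 20q proteins work in complexes with, or have paralogs among, proteins encoded elsewhere. The values of these other genes were not part of the rule for the 20q genes, although they too were listed with earlier results of these data known. Of 157 such genes listed, 153 on other chromosomes were tested. Their median log2 fold change was 0.00, and 77 of the 153 were below 0. In 149 of 154 pairs the 20q gene had the lower value, and the median of the 20q gene minus its partner was -0.37. This comparison is a description, since the values of the 20q genes were known when they were chosen.

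Of the 54 genes with a tested partner or paralog, 49 lay below each of theirs. Such an order is largely fixed by the choice of genes that were lower, and no share for other gene pairs is given. PSMA7, a ring subunit of the proteasome, had a log2 fold change of -0.46, whereas 13 other core subunits ranged from -0.09 to 0.13. RPN2, a subunit of the oligosaccharyltransferase, had a value of -0.37, against -0.18 to -0.03 for 5 other subunits of that enzyme. EIF2S2, the beta subunit of translation initiation factor eIF2, had a value of -0.38, while its alpha and gamma subunits EIF2S1 and EIF2S3 were at -0.12 and -0.13. The 20q subunit lay below each of the others in these 3 complexes, which were named after their values were seen. Other partners were close to the 20q gene. CTSA at -0.29 was beside NEU1, which binds CTSA in the lysosome, at -0.27, and DYNLRB1 at -0.22 was beside the dynein heavy chain DYNC1H1 at -0.18. TOMM34 at -0.06 lay above the chaperone HSP90AA1 at -0.14.

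Among paralogs, YWHAB, a 14-3-3 protein, was at -0.34 and its 6 paralogs between -0.04 and 0.28, and E2F1 was at -0.43 while 7 other E2F genes ranged from -0.15 to 0.20. SRSF6 was at -0.06 ± 0.08 and 6 other SRSF genes lay between 0.00 and 0.10. Its distance to the nearest of them, SRSF3, was within its SE, and without the first shNT library SRSF6 at 0.02 lay above SRSF3 at 0.00. AURKB, the paralog of AURKA, was at 0.13. Besides TOMM34, the 20q genes that did not lie below each of theirs were PLCG1, DNMT3B, MAPRE1 and CEBPB. PLCG1 at -0.24 lay above PLCG2 at -0.54, and DNMT3B at -0.26 was level with DNMT3A at -0.26, neither paralog passing an adjusted p of 0.05 with limma. SDC4 and its paralog SDC2 were both at -0.29.

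**Figure D5:**
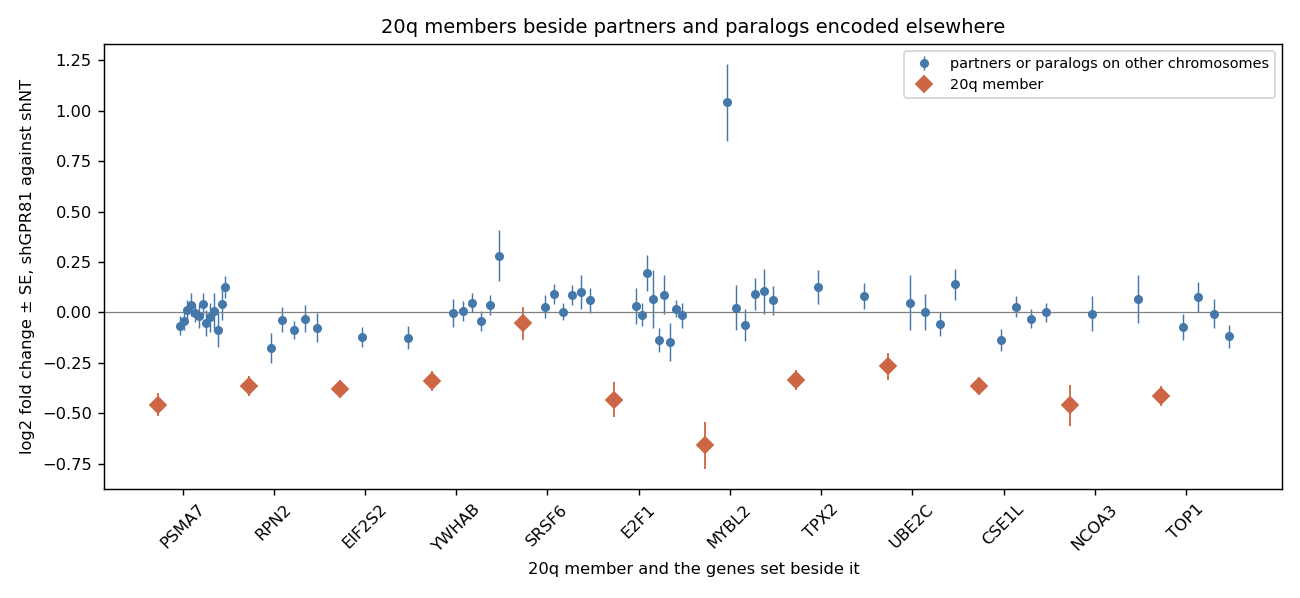
Log2 fold change ± SE of shGPR81 against shNT for 12 of the 20q genes (orange diamonds) and for their complex partners or paralogs on other chromosomes (blue circles), grouped on the horizontal axis by the 20q gene. The 12 were picked from 54 after their values were seen and leave out the 5 genes not below each of their partners. PSMA7 lies at -0.46 against 13 subunits between -0.09 and 0.13, and SRSF6 at -0.06 against 6 genes between 0.00 and 0.10, an order that turns for SRSF3 without the first shNT library.

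Of the 153 partners and paralogs, 5 passed a limma adjusted p of 0.05 with Benjamini-Hochberg adjustment over all genes, 2 of them lower and 3 higher, where 3.07% and 2.06% of all tested genes were. An unadjusted p under 0.05 was reached by 26, against 19.5% of all tested genes. These shares are near or below the background, so nothing is particular to the list. MAPRE3, a paralog of MAPRE1, fell from 2.57, 2.71 and 2.61 FPKM to 0.890, 0.785 and 1.26 FPKM, a log2 fold change of -1.37 with an adjusted p of 0.0056. CEBPA, a paralog of the 20q gene CEBPB, fell from 1.88, 2.31 and 2.06 FPKM to 0.838, 0.990 and 0.961 FPKM, a log2 fold change of -1.08 with an adjusted p of 0.0056. For both of these pairs the gene on 20q was not the lower one.

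In the opposite direction, MYB, the paralog of MYBL2 known from blood progenitors, rose from 0.381, 0.410 and 0.482 FPKM to 1.16, 0.971 and 0.825 FPKM. Its log2 fold change was 1.04 with a limma adjusted p of 0.022, and on the FPKM scale, which is per length, it stayed far below MYBL2. SMURF2, a ubiquitin ligase of the family of ITCH, rose by 0.42 on the log2 scale (limma adjusted p = 0.012), and TGIF1, the paralog of the repressor TGIF2, by 0.33 (limma adjusted p = 0.035). With the fold threshold of 1.5 in addition, MAPRE3 and CEBPA were called lower and MYB higher, against 1.59% and 0.955% of all tested genes.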

How the data were processed

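The authors aligned the reads with TopHat2 2.0.13, Bowtie2 2.2.3 and SAMtools 0.1.19 and deposited FPKM from Cuffnorm 2.2.1, according to the submitters' processing notes. These notes name a mouse build, whereas the methods of the paper name the human build GRCh37, which was used because the cells are human. Counting by strand is not given in the sources used here. The linear model of limma 3.58.1 (R 4.3.3, eBayes with a mean-variance trend) was run on log2(FPKM + 0.1) for the 14349 genes that reached 0.1 FPKM in 3 or more libraries, with Benjamini-Hochberg adjustment. The design took the call thresholds, an adjusted p of 0.05 and a fold change of 1.5, from the paper. In a test on artificial FPKM values with a log2 change of 1, 149 of 200 changed genes were called and 3 unchanged genes were called.

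The members and all lists were chosen with earlier results of these data known. Genes described in full were those linked to cancer, the 5 lowest and 5 highest, and the lowest and highest of each functional group. Other members were named after their values were seen. Loci are from GENCODE release 44 on GRCh37, and starts beyond 28 Mb were taken as 20q. Reads were recovered for genes whose 6 FPKM values were, after scaling for depth, whole multiples of a shared step within 0.001 reads, or within a relative 1e-05 where that was more. They are the smallest whole numbers that fit, so the true counts of a gene may be a shared multiple of them. Genes above 1500 such reads, or with an expected number of false matches of 0.001 or more, were left out, which kept 10 members of up to 1424 reads. The counting error of these reads covers sampling only.

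Same-numbered libraries of the groups correlated in their deviations at 0.120, 0.022 and 0.006 across genes, so the numbers were not taken as pairs. MIR6723 made up 28.1% to 36.2% of the FPKM sums. No column of other samples was present.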

Additional observations from a re-analysis of the deposited data

How the results depend on the processing

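The median of the 20q genes lay between -0.39 and -0.34 under leaving out each library in turn, and between -0.38 and -0.35 under the other filters, pseudocounts, centring on genes outside chromosome 20, quantile normalization, the replicate number as a block and the GC correction, which was added after the data were seen. Under alternatives, 279 single-gene values were checked for 20 of the 20q genes, and 277 moved by less than the replicate spread. The remaining 20q genes, ADRM1 among them, were not part of this count. Within the count the exceptions were PREX1, at -0.10 with a pseudocount of 1 and -0.89 with 0.01.

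Counts depended on the libraries. Leaving out each library, the 20q genes called lower numbered 1 to 7 and those with an adjusted p under 0.05 numbered 14 to 48. The lowest of the first count, 1, came without shNT replicate 2 or without shGPR81 replicate 1, and 2 genes were called without shNT replicate 3 or shGPR81 replicate 2, against 7 without shNT replicate 1. Of the second count, 14, 16 and 22 came without shGPR81 replicates 1, 2 and 3, and 16 without shNT replicate 2. These fits hold fewer samples. The SD over the 20q genes ran from 0.133 to 0.167, highest without shNT replicate 1. The E2F target median ran from -0.015 to 0.029, and the partner median from -0.0071 to 0.013.

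The partner median of -0.00062 was -0.019 with centring outside chromosome 20, -0.011 with quantile normalization and -0.017 with the GC correction. With the replicate block, 37 of the 20q genes had an adjusted p under 0.05, 4 were called lower and 2 partners were called, against 39, 4 and 3 without it. The block changed the direction of no median given here.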
